A study of Rattus norvegicus with 6 samples.

Results

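The genes described here are 7 targets of the transcription factor SREBP2 in sterol synthesis, Hmgcs1, Idi1, Fdft1, Sqle, Cyp51, Msmo1 and Insig1. They were chosen by name and found on the array through the RefSeq accession of each probe, and they are 7 of the 31179 genes tested. All 7 were on the array, with 17 probes in all, and all 17 probes were well above background on all 6 arrays. The RNA came from renal cortex of male Sprague-Dawley (Crl:CD(SD)) rats bought at 5 weeks of age and kept on a basal diet, with 1 Agilent array in Cy3 per animal. The vehicle group was 3 rats given corn oil for 4 weeks, and the treated group was 3 rats given benzyl acetate, a fragrance ester, at 1000 mg/kg/day for 4 weeks. The series describes the 3 animals of each group as biological replicates, and the labels state no further aim.

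Cells hold their sterol level steady through SREBP2, which is made as a membrane protein of the endoplasmic reticulum. When membrane cholesterol falls, the escort protein SCAP carries SREBP2 to the Golgi, where it is cut by proteases, and the freed part enters the nucleus and binds sterol regulatory elements near genes of cholesterol synthesis and uptake. When sterols are plentiful, INSIG proteins hold SCAP back, and because Insig1 is itself a target its transcript is widely read together with those of the synthesis enzymes.

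With 3 rats per group, no difference between treated and vehicle cortex was resolved for any of the 7 genes. The log2 differences, benzyl acetate minus vehicle, ran from -0.057 (Idi1) to 0.27 (Insig1) with a median of 0.026, against a median of 0.012 over all genes tested. That median of the 7 had no steady sign, running from -0.014 without vehicle replicate 1 to 0.086 without vehicle replicate 2. In limma none of the 7 passed an adjusted p of 0.05, beside a share of 0% of all 31179 genes (0 higher and 0 lower, with 2100 at an unadjusted p under 0.05). Insig1 had a 1.21-fold higher mean on the treated arrays, with 4 of 4 probes higher and an adjusted p of 0.751 in limma. Cyp51 came next at 0.17, and was as large as Insig1 with normexp background correction (0.21 and 0.20) and without benzyl acetate replicate 3 (both 0.18). The highest array differed between genes: Sqle, Idi1 and Fdft1 peaked in vehicle replicate 2, and Hmgcs1, Msmo1 and Insig1 in benzyl acetate replicate 3.

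SREBP2 acts on promoters together with NF-Y, which binds CCAAT boxes, and Sp1, which binds GC boxes. The RefSeq promoter table (GRCr8) held windows of 300 bases, from 250 before to 50 after the start, for 5 of the 7 genes, Hmgcs1, Idi1, Cyp51, Msmo1 and Insig1. The windows of Insig1, Hmgcs1 and Msmo1, which were all highest in benzyl acetate replicate 3, and of Idi1, which was highest in vehicle replicate 2, are printed 5′ to 3′ in the direction of transcription. Capitals mark every match, on either strand, to any of 4 motifs. TCACNCCA is the core of a classical sterol regulatory element. The CCAAT box is read as its letters, the GC box as GGGCGG and the E-box as CACGTG.
Insig1, GRCr8 chr4:8057720-8058019, minus strand: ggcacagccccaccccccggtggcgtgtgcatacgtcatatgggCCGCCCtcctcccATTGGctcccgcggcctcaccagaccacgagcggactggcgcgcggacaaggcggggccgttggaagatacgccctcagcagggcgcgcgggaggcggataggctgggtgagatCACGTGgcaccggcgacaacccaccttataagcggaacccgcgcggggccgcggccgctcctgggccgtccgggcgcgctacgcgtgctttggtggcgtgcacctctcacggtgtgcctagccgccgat
Hmgcs1, GRCr8 chr2:53382054-53382353, plus strand: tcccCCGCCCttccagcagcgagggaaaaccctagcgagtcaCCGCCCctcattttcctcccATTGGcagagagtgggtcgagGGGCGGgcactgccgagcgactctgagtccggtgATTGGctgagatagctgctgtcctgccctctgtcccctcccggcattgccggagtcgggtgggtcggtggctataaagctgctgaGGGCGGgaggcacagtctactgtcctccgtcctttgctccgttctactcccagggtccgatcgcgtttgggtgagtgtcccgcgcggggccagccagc
Msmo1, GRCr8 chr16:29746863-29747162, plus strand: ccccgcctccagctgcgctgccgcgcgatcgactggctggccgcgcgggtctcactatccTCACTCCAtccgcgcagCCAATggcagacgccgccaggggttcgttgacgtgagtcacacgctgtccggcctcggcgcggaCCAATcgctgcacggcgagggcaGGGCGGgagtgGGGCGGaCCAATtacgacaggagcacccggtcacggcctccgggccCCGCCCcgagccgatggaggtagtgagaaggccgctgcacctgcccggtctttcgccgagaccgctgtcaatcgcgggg
Idi1, GRCr8 chr17:66547475-66547774, minus strand: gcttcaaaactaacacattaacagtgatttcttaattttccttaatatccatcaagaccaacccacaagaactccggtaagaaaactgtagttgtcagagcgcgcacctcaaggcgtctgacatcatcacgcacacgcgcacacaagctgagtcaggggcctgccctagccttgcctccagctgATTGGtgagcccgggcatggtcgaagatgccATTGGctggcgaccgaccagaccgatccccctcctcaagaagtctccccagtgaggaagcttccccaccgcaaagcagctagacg

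CCAAT occurred in 4 of the 5 windows, all but that of Cyp51, and in 37.5% of all 33469 promoter windows in the table. GGGCGG occurred in 4 of the 5, all but that of Idi1, and in 33.1% of all windows. The sterol core TCACNCCA was found only in the Msmo1 window among the 5, and in 3.89% of all windows, while CACGTG was found only in that of Insig1, and in 6.42% of all. Matches on either strand were marked, and where motifs could share letters each was counted on its own. These are matches of letters in a short window, so the absence of a match says nothing about binding outside it.

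All values by array are log2 signals relative to the 75th percentile of the array, taken from the brightest probe of each gene, and are not comparable between probes. Hmgcs1 (NM_017268) encodes the cytosolic HMG-CoA synthase that starts the mevalonate pathway. It measured 2.59, 2.71 and 2.70 in vehicle replicates 1 to 3 and 2.79, 2.63 and 2.85 in benzyl acetate replicates 1 to 3. Benzyl acetate replicate 2 was below 2 of the vehicle arrays and the other treated arrays were above all 3, so the groups overlapped. The difference was 0.086 (SE 0.085, 95% interval -0.12 to 0.29), with an adjusted p of 0.872. The same array, benzyl acetate replicate 3, was the highest with all 3 Hmgcs1 probes, by 0.062 to 0.15 log2 over the next.

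Idi1 (NM_053539) encodes isopentenyl-diphosphate isomerase, which makes the allylic unit that is built into longer isoprenoids. Its signals were 0.82, 1.25 and 0.86 with vehicle and 0.92, 0.80 and 1.04 with benzyl acetate. Vehicle replicate 2 alone stood high, and the other 5 arrays lay within one band. The difference of -0.057 (SE 0.14, interval -0.40 to 0.28; adjusted p = 0.960) depended on that array, at 0.079 when vehicle replicate 2 was left out, and was 0.0021 when benzyl acetate replicate 2 was left out. All 3 Idi1 probes were highest in vehicle replicate 2, by 0.21 to 0.29 log2, and the probes correlated with each other over the 6 arrays at r = 0.91 to 0.92.

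Fdft1 (NM_019238) encodes squalene synthase, the first enzyme committed to sterols. It read 2.77, 2.94 and 2.82 with vehicle and 2.79, 2.87 and 2.86 with benzyl acetate, the narrowest range of the 7 genes at 0.17 log2. The group means, 2.84 ± 0.085 and 2.84 ± 0.046 (SD, n = 3 each), differed by -0.0024 (interval -0.18 to 0.18; adjusted p = 0.998). Leaving out vehicle replicate 2 gave 0.045 and leaving out benzyl acetate replicate 1 gave 0.024, both inside that interval. The second Fdft1 probe differed by 0.045 and correlated with the first at r = -0.24 over the arrays, so the small variation of this gene between animals did not repeat between its probes.

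Sqle (NM_017136) encodes squalene epoxidase, an oxygen-dependent and strongly regulated step. Its values were 1.29, 1.56 and 1.17 with vehicle and 1.35, 1.24 and 1.34 with benzyl acetate. As for Idi1, vehicle replicate 2 was the highest array, and the treated values lay inside the vehicle range. The difference was -0.026 (SE 0.12, interval -0.31 to 0.26; adjusted p = 0.983), and it had the other sign without vehicle replicate 2 (0.086) or benzyl acetate replicate 2 (0.012). Both Sqle probes were highest in vehicle replicate 2, each by 0.21 log2, and they correlated at r = 0.97.

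Cyp51 (NM_012941) encodes lanosterol 14-alpha-demethylase, the cytochrome P450 of the pathway. It measured -0.29, -0.23 and -0.23 with vehicle and 0.14, -0.29 and -0.10 with benzyl acetate. The vehicle arrays lay close together, and benzyl acetate replicate 1 was high while replicate 2 was level with the lowest vehicle array. The difference was 0.17 (SE 0.12, interval -0.12 to 0.46; adjusted p = 0.827). It was 0.055 without benzyl acetate replicate 1 and 0.27 without benzyl acetate replicate 2 (interval 0.0070 to 0.54, adjusted p = 0.833). The second Cyp51 probe gave 0.035 and correlated with the first at r = 0.35, and on it vehicle replicate 1 was the highest array.

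Msmo1 (NM_080886) encodes methylsterol monooxygenase, which removes methyl groups from the sterol ring, and had a single probe. Its signals were 3.93, 4.01 and 4.09 with vehicle and 4.03, 3.95 and 4.14 with benzyl acetate. The groups interleaved, with benzyl acetate replicate 3 highest and vehicle replicate 1 lowest. The difference was 0.026 (SE 0.082, interval -0.18 to 0.23; adjusted p = 0.971), with the other sign at -0.024 without benzyl acetate replicate 3 and -0.014 without vehicle replicate 1.

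Insig1 (NM_022392), the feedback regulator that retains SCAP, measured 2.15, 2.36 and 2.47 with vehicle and 2.48, 2.53 and 2.77 with benzyl acetate. Each treated array lay above each vehicle array, although benzyl acetate replicate 1 exceeded vehicle replicate 3 only narrowly. Insig1 was the only 1 of the 7 genes without overlap, where 12.8% of all genes tested had none and 7.51% had none with the treated arrays higher. The means were 2.59 ± 0.16 with benzyl acetate and 2.32 ± 0.16 with vehicle (SD, n = 3 each), a difference of 0.27 (SE 0.12, interval -0.026 to 0.57; unadjusted p = 0.0666, adjusted p = 0.751 in limma). The 4 Insig1 probes differed by 0.22 to 0.27 and correlated with each other at r = 0.76 to 0.97, and the groups were apart with 2 of them. In each probe benzyl acetate replicate 3 was highest, by 0.19 to 0.24 log2 over the next array. Without benzyl acetate replicate 3 the difference was 0.18, and without vehicle replicate 1, the only array on its slide, it was also 0.18. With the replicate number as a block the unadjusted p was 0.0276, and the adjusted p 0.723. The groups overlapped under median scaling and with normexp background correction.

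**Figure D1:**
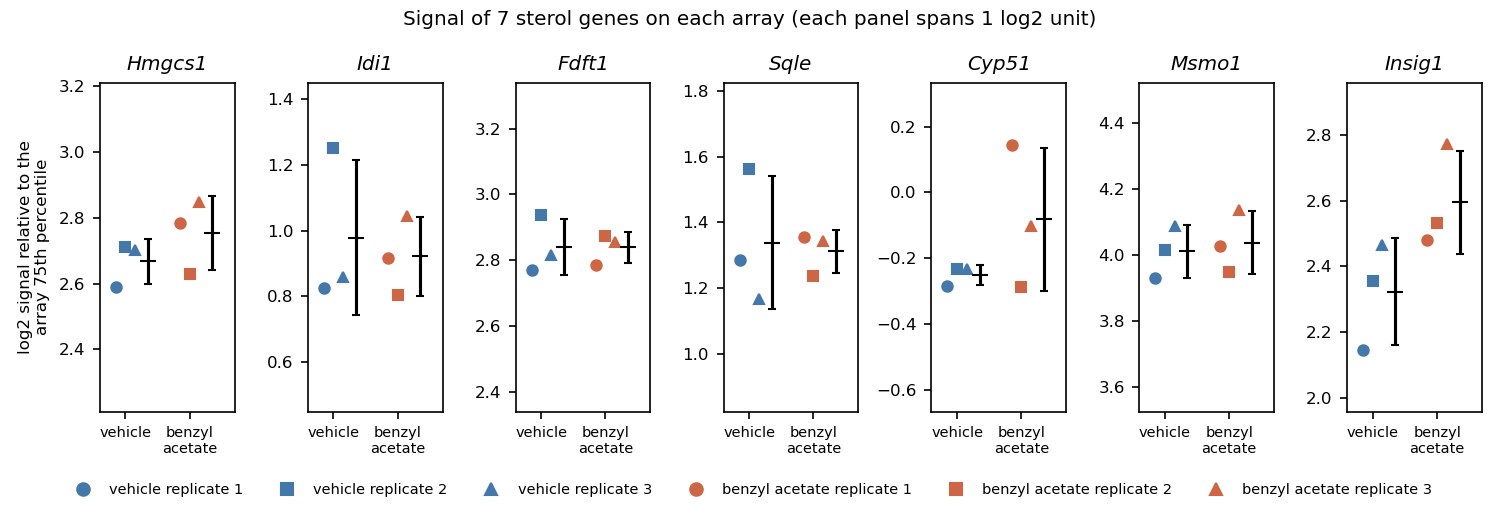
Log2 signal relative to the array 75th percentile (vertical axis; each panel spans 1 log2 unit) of the 7 genes on 3 vehicle arrays (blue) and 3 benzyl acetate arrays (orange), with a marker shape per replicate number and, in black, the group mean and SD. Insig1 is the only panel in which the groups do not overlap, and vehicle replicate 2 stands high for Idi1 (1.25) and Sqle (1.56).

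The intervals bounded how large a change could be. In the gene fit the 95% interval of all 7 genes lay inside a 1.5-fold difference in either direction. It did so for 73.9% of all genes tested and 77.1% of those with a symbol. For Insig1 that bound was close, since its upper limit ran from 0.45 to 0.68 over 16 alternatives and passed 1.5-fold (0.58) in 5 of them; the other 6 genes stayed inside it in all 16. The typical interval over all genes reached 0.27 log2 to either side.

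**Figure D2:**
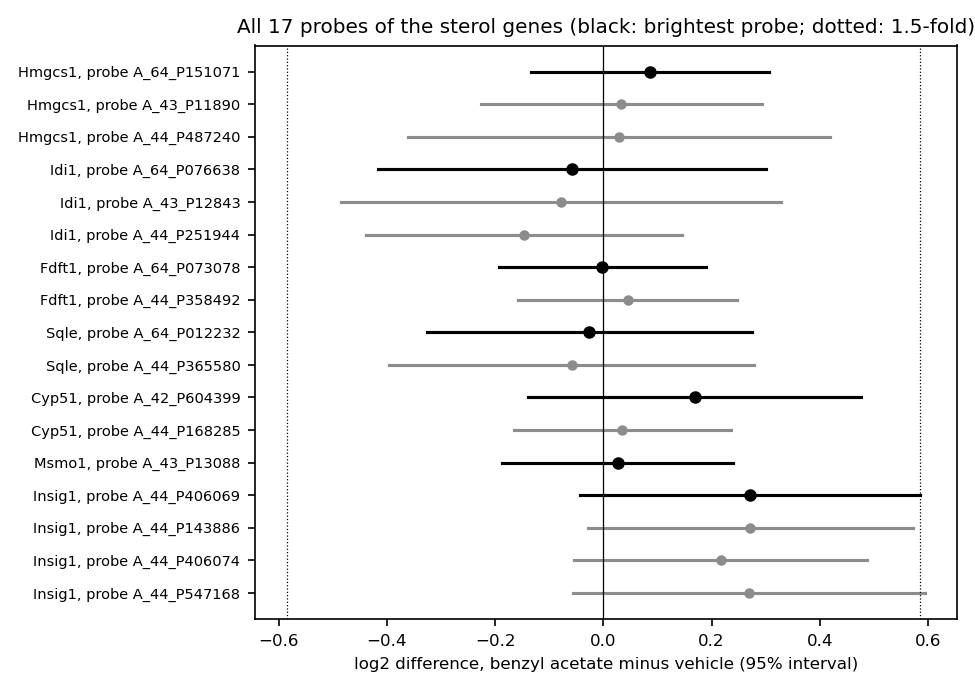
Log2 difference, benzyl acetate minus vehicle, with its 95% interval for each of the 17 probes, from a limma fit over all 61537 probes, whose intervals are slightly wider than those of the gene fit. Black marks the brightest probe of each gene, used for the values in the text, and dotted lines mark 1.5-fold. The 4 Insig1 probes lie together at 0.22 to 0.27, and the probes of the other genes lie between -0.15 and 0.17. In this fit the upper limits of the brightest Insig1 probe (0.586) and of another Insig1 probe (0.595) pass 1.5-fold (0.585).

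The 21 pairs of genes were then compared over the 6 arrays. The median Pearson r was 0.36, with 18 of 21 pairs above 0, and 6 of 21 (28.6%) reached 0.7. Over all pairs of genes tested the median r was 0.01 and 6.65% reached 0.7. These pairs share the 6 arrays and their scaling, and no pair passed after adjustment over the 21 (lowest adjusted p = 0.306 for Pearson and 0.432 for Spearman, exact two-sided permutation tests). With the group means taken out the median r was 0.41, and over the 5 arrays of the slide that held both groups it was 0.20. Where the arrays farthest from a gene's median were left out of a pair, too few remained to show what it rested on, whether r rose or fell.

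Sqle and Idi1 had the highest correlation, r = 0.90 (exact permutation p = 0.0208, adjusted 0.306) and rho = 0.77 (exact permutation p = 0.103, adjusted 0.432). It was 0.81 without vehicle replicates 2 and 3, the arrays farthest from the Sqle median, 0.92 within the shared slide and 0.81 to 0.93 over the 6 combinations of their probes. The relation of Sqle and Idi1 was similar whichever probes were read. Fdft1 followed Idi1 at r = 0.73 (exact permutation p = 0.0986, adjusted 0.365) and rho = 0.37 (exact permutation p = 0.497, adjusted 0.864). Without vehicle replicate 2 and benzyl acetate replicate 3 that r was -0.52, over too few arrays to show what the relation rested on. The relation of Fdft1 and Idi1 differed by probe, from -0.75 to 0.73 over 6 combinations. So did that of Sqle with Fdft1, from -0.72 to 0.60 over 4 combinations and at -0.35 without vehicle replicates 2 and 3.

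Hmgcs1 and Msmo1 correlated at r = 0.86 (exact permutation p = 0.0292, adjusted 0.306) and rho = 0.83 (exact permutation p = 0.0583, adjusted 0.432). Over the 3 combinations of probes this r ran from 0.36 to 0.86, and it was 0.52 without vehicle replicate 1 and benzyl acetate replicate 3 and 0.78 within the shared slide. Insig1 correlated with Hmgcs1 at r = 0.78 (exact permutation p = 0.0722, adjusted 0.365) and with Msmo1 at r = 0.74 (exact permutation p = 0.0917, adjusted 0.365), in both cases with rho = 0.60 (exact permutation p = 0.242, adjusted 0.564). Over combinations of probes these ran from 0.28 to 0.78 (12) and from 0.33 to 0.74 (4). Without vehicle replicate 1 and benzyl acetate replicate 3 these relations were -0.32 and -0.31. Too few arrays remained to show what the relations rested on. Sqle correlated with Insig1 at r = -0.092 and with Msmo1 at r = -0.0020, and these became 0.35 and 0.75 without vehicle replicates 2 and 3. Each gene had a positive r with the mean of the other 6, from 0.36 (Cyp51) to 0.89 (Hmgcs1). Cyp51 followed Hmgcs1 at r = 0.71 (exact permutation p = 0.104, adjusted 0.365) and rho = 0.89 (exact permutation p = 0.0333, adjusted 0.432), and at r = 0.88 without vehicle replicate 1 and benzyl acetate replicate 3, but over the 6 combinations of probes r ran from -0.15 to 0.71. Cyp51 and Fdft1 had the lowest r of all 21 pairs, -0.32.

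**Figure D3:**
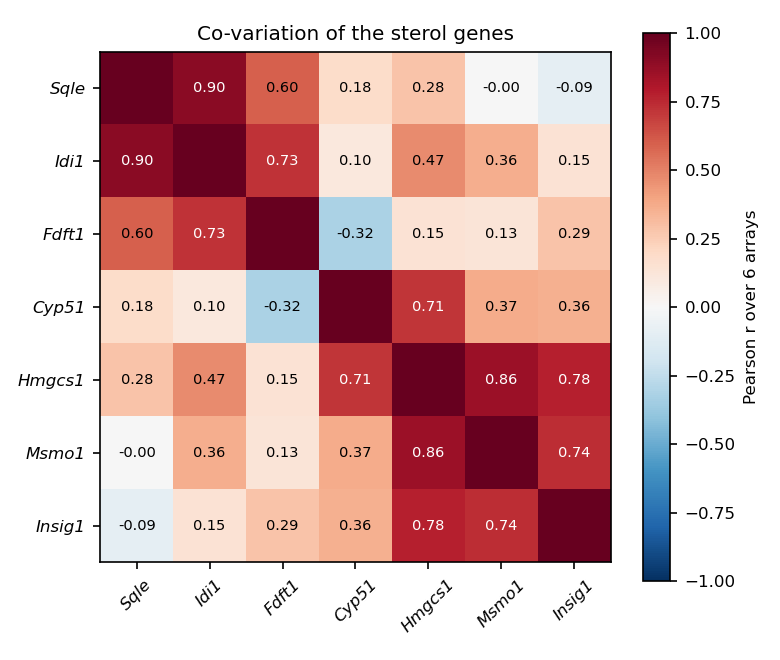
Pearson r over the 6 arrays for each of the 21 pairs of genes, coloured from -1 (blue) to 1 (red). The highest values are Sqle with Idi1 (0.90) and Hmgcs1 with Msmo1 (0.86), and the lowest is Fdft1 with Cyp51 (-0.32); values are for the brightest probe of each gene.

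RNA controls and other array measures were set beside the 7 genes. The log2 difference between the 3′ and 5′ control probes of Pgk1, 10 spots each, was 5.38, 5.58 and 5.44 on the vehicle arrays and 5.57, 5.51 and 5.60 on the treated arrays. It was lowest in vehicle replicate 1 and highest in benzyl acetate replicate 3, the arrays at the ends of the mean of the 7 genes. It correlated with that mean at r = 0.94 (n = 6), and 0.889% of all genes reached 0.9 with it. Without vehicle replicates 1 and 3 the r with the mean was 0.99, over too few arrays to show what the relation rested on. All 7 genes had a positive r with the Pgk1 difference, from 0.50 (Msmo1) to 0.79 (Hmgcs1), where the median over all genes was 0.081 and 56.2% were positive. None of 28 relations between a gene and an array measure passed after adjustment (exact two-sided permutation tests, lowest adjusted p = 0.579 for Pearson and 0.677 for Spearman). The same difference for Gapdh was 2.62 in benzyl acetate replicate 3 and 2.37 to 2.44 on the other arrays, and correlated with the mean of the 7 genes at r = 0.65. The mean of the 7 correlated at r = -0.45 with the log2 of the 75th percentile signal. With the share of probes well above background its r was -0.36. The part of RNA quality in the variation between arrays was not tested.

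**Figure D4:**
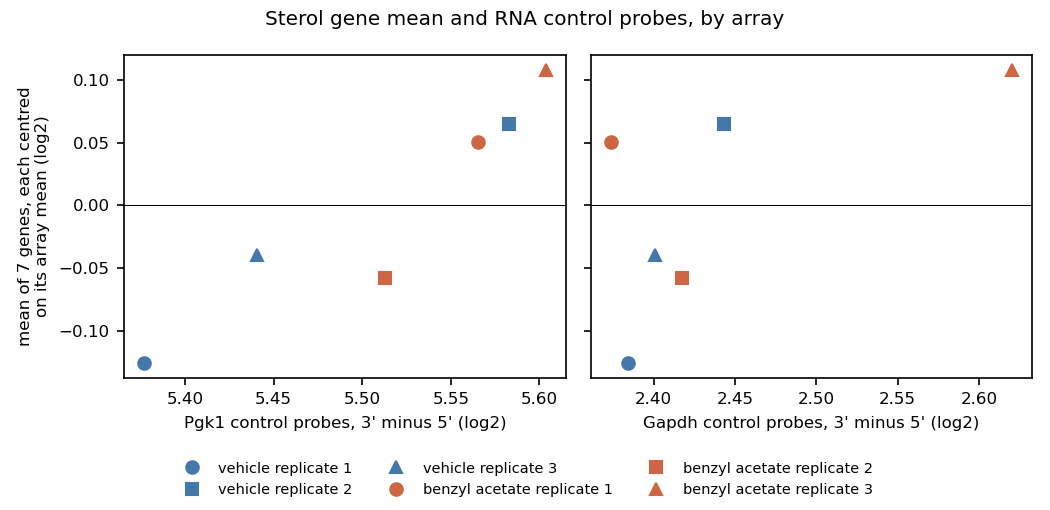
Mean of the 7 genes on each array, each gene centred on its own mean over the arrays (vertical axis, log2), against the 3′ minus 5′ log2 difference of the Pgk1 (left) and Gapdh (right) control probes, with colours for the groups and shapes for the replicate numbers. Along the Pgk1 axis the mean runs from -0.13 in vehicle replicate 1 to 0.11 in benzyl acetate replicate 3 (r = 0.94), while along the Gapdh axis benzyl acetate replicate 3 lies apart at 2.62.

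The mean of the 7 was also correlated with single genes. Among 11928 genes with a symbol and detection on all arrays, the highest r over the 6 arrays were 0.99 for Eno2 (neuronal enolase), 0.99 for Dpm3 (a subunit of dolichol-phosphate mannose synthase), 0.99 for Tbx4 (a T-box transcription factor), 0.98 for Rwdd3 and 0.98 for Selenoh (a selenoprotein). They were picked as the highest of many genes over only 6 arrays, and shared regulation with the 7 was not tested. Tbx4 was dim, from -4.25 in vehicle replicate 1 to -3.54 in benzyl acetate replicate 3. In all, 305 of 31165 genes (0.979%) reached 0.9, none of them in the 6 sterol and lipid lists. At that share, lists of 8 to 14 genes could easily hold none, so no conclusion is drawn about them. The genes named here also followed the Pgk1 control difference, from r = 0.89 (Tbx4) to 0.93 (Dpm3).

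The enzymes of sterol synthesis other than the 7 had 14 tested genes of 15 listed, and 0 passed in limma, 10 of them with a positive and 4 with a negative difference (8 and 6 under median scaling and for the mean of probes). Their median difference was 0.061, and 1 had an unadjusted p under 0.05, where 6.74% of all genes did. Tm7sf2, a sterol reductase of the late pathway, was 2.32, 2.27 and 2.02 with vehicle and 2.41, 2.61 and 2.42 with benzyl acetate. Each treated array was above each vehicle array, and the difference was 0.28 (interval 0.013 to 0.55; unadjusted p = 0.0426, adjusted p = 0.729 in limma), with 0.42 on its second probe. Dhcr7, which makes cholesterol from 7-dehydrocholesterol, differed by 0.22 (interval -0.099 to 0.54). Over the 6 arrays 12 of these 14 genes had a positive r with the mean of the 7, with a median of 0.46, against 57.3% positive and a median of 0.097 over all genes. By the same measure the median r was 0.27 for the uptake and transport list (7 of 8 positive), -0.37 for the SREBP processing list (4 of 10), -0.026 for the efflux list (5 of 10), -0.032 for the isoprenoid list (4 of 9) and -0.081 for the fatty acid list (6 of 13).

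The genes that control SREBP2 had 10 tested of 12, of which 0 passed, 4 positive and 6 negative, with a median difference of -0.030. Srebf2, which encodes SREBP2 itself, read 1.75, 1.88 and 1.96 with vehicle and 1.90, 1.84 and 1.92 with benzyl acetate, a difference of 0.021 (interval -0.17 to 0.21). Scap differed by 0.037 (interval -0.18 to 0.26) and Insig2, the paralogue of Insig1 that is not an SREBP2 target, by -0.0075 (interval -0.21 to 0.19). The treated and vehicle arrays overlapped for each of these 3 genes. Mbtps2, the intramembrane protease that frees SREBPs, differed by -0.17, but by 0.034 on its second probe. Rnf145, a ubiquitin ligase of the reticulum, differed by -0.24. Srebf1 had no probe matched by accession and was not analysed here.

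Genes of sterol uptake and transport had 8 tested of 11, with 0 past the threshold, 5 positive and 3 negative and a median of 0.080. The median was -0.0059 (4 positive and 4 negative) without benzyl acetate replicate 1 and 0.13 (7 and 1) without vehicle replicate 3. Tmem97, a sterol-responsive membrane protein, differed by 0.20 (interval -0.11 to 0.52) and Stard4, a cytosolic sterol carrier, by 0.14 (interval -0.085 to 0.37).

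Efflux, storage and LXR genes had 10 tested of 12, with 0 passed, 5 positive and 5 negative and a median of -0.0043. Abca1, the cholesterol exporter, differed by 0.034 (interval -0.61 to 0.68). Ch25h, which makes the SREBP-suppressing oxysterol 25-hydroxycholesterol, was -0.45, 0.0092 and -0.95 with vehicle and -0.996, -0.988 and -1.83 with benzyl acetate. The groups did not overlap and the difference was -0.81 (interval -1.61 to -0.0060; unadjusted p = 0.0488, adjusted p = 0.736 in limma). It was -0.53 (unadjusted p = 0.126 in limma) without benzyl acetate replicate 3 and -0.57 (unadjusted p = 0.138 in limma) without vehicle replicate 2. Scarb1, the HDL receptor, differed by -0.17 (interval -0.50 to 0.16). The isoprenoid branch had 9 tested of 10, with 0 passed and a median of 0.012. Among them were Coq2 (-0.11) of ubiquinone synthesis and Ggps1 (-0.065, but 0.085 on its second probe), which makes geranylgeranyl diphosphate. Fatty acid synthesis genes under SREBP1 had 13 tested of 15, with 0 passed and a median of 0.026. Among them were the desaturases Fads2 (0.12, and 0.18 on its second probe) and Scd2 (0.18, but -0.018 on the lowest of 3 probes).

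**Figure D5:**
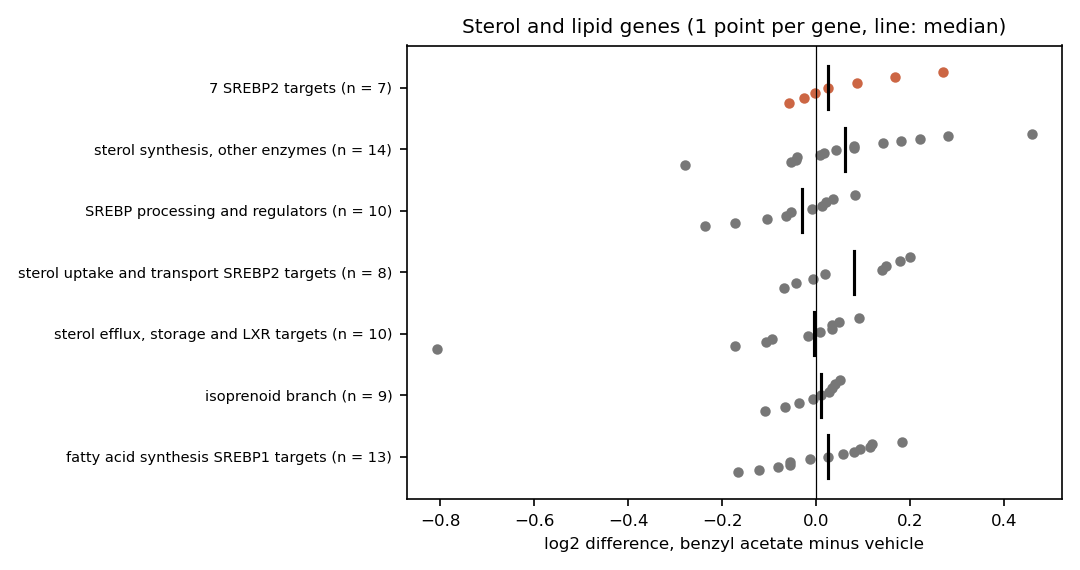
Log2 difference, benzyl acetate minus vehicle, of each tested gene (points) in the 7 SREBP2 targets (orange) and in 6 further lists of sterol and lipid genes (grey), with the median of each list as a black line. The medians lie between -0.030 and 0.080, and the farthest point is Ch25h at -0.81.

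The arrays carried renal cortex RNA by their markers. All 6 proximal tubule markers were tested, with a mean log2 signal of 7.71 to 7.85 on vehicle and 7.77 to 7.88 on treated arrays. Of 7 markers of adrenal cortex, a neighbouring tissue rich in sterol synthesis, 5 were not well above background on all arrays of either group, Star, Cyp11a1, Cyp11b1, Cyp11b2 and Mc2r. The 2 others, Cyp21a1 and Hsd3b1, had a mean of -2.01 to -1.29 with vehicle and -1.70 to -1.42 with benzyl acetate. Hepatocyte markers, 3 tested of 4, varied widely, with a mean of -4.09 to -1.95 with vehicle and -4.69 to -1.46 with benzyl acetate. Alb, Apoa1 and Serpina1 ran opposite to the mean of the 7 genes over the arrays, at r = -0.88, -0.90 and -0.91. Over all genes tested r reached -0.99. All 3 markers were lowest in benzyl acetate replicate 3, followed by vehicle replicate 2, so they are not separate results. Apoa1 and Serpina1 were dim, at -4.99 and -5.80 in benzyl acetate replicate 3. The part of hepatocyte transcripts in the variation of the 7 genes was not tested. In tissue RNA, fewer cells of a type and less RNA per cell cannot be told apart. Beside the higher Insig1 values, the mean of 5 of 5 collecting duct markers was apart in the other direction, at 4.70 to 4.91 with benzyl acetate and 5.10 to 5.28 with vehicle, although by single markers Slc26a4 (-0.96), Atp6v1g3 (-0.63) and Aqp3 (-0.16) were apart and Aqp2 (-0.23) and Scnn1g (0.094) overlapped. So was the mean of 3 tested of 4 distal and connecting tubule markers, at 4.32 to 4.56 against 4.59 to 4.74, with Calb1 (-0.41) alone apart by itself. The mean of 4 of 4 endothelial markers was apart in the same direction, at 1.72 to 1.78 against 1.63 to 1.68, but of the 4 only Kdr (0.25) was apart, while Pecam1 (0.033), Cdh5 (0.028) and Emcn (0.023) overlapped. The mean of 5 tested of 6 T and NK cell markers (all but Cd3e) lay below, at -2.59 to -2.38 against -2.23 to -0.82, with Cd2 (-1.77) and Gzma (-0.50) apart and the other 3 overlapping. Between 69.0% and 69.8% of probes were well above background on the treated arrays and 70.5% to 72.0% on the vehicle arrays. The part of these measures in the Insig1 difference was not tested.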

How the data were processed

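Scanner tables of 6 Agilent arrays hold linear intensity values deposited by the authors; the submitters' processing notes name Agilent Feature Extraction 10.7. The processed signal is background-subtracted, per the file headers, and the other columns used are flags of 0 or 1 set by that software. The authors' deposited value table, also intensity, equalled the processed signal scaled to a 75th percentile of 1, within an SD of at most 0.0059 log2, and its columns had medians of 0.1102, 0.111 and 0.111 (vehicle replicates 1 to 3) and 0.1148, 0.1118 and 0.1125 (benzyl acetate); the scale is linear with no centring of genes.

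Each processed signal was taken as log2, and the array's 75th percentile was subtracted, over 61537 non-control probes. Spots flagged as outliers were left out; none was on a probe of the 7 genes, and no spot was saturated. Such scaling removes any shift common to most genes. A probe entered when well above background on all 3 arrays of a group, and the brightest probe stood for a gene. Accessions of 28206 probes matched a RefSeq table (GRCr8); the array grid names an older build, so coordinates are given for promoter windows only.

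Limma 3.58.1 in R 4.3.3 (lmFit and eBayes) was fitted to 31179 genes with Benjamini-Hochberg adjustment and a threshold of 0.05; it was tested on simulated data. Correlations over arrays had exact permutation tests of all 720 pairings. Named were the 7 genes, set pathway genes (some are not reported here), the 2 of lowest p per list and the 5 genes most like the mean of the 7. Cyp21a1 and the other markers come from marker lists. The RNA controls, the other array measures and the promoter motifs were added after the values were seen. The genes and lists were chosen with earlier results of these data known. Alternatives were other background corrections, scalings, filters, probe rules, the value table, blocks and leaving out each replicate. Slide 1 held vehicle replicate 1, and slide 2 held the 5 remaining arrays. No 2 arrays held identical signals.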

Additional observations from a re-analysis of the deposited data

How the results depend on the processing

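None of the 7 genes, and no gene of the 6 other lists, passed in limma under any of the 16 alternatives, and the lowest adjusted p of any of the 7 was 0.438, with no filter on dim probes. Over all genes, 0 were higher under every alternative, and 2 were lower with normexp background correction (run on the median spot signal) and 0 to 2 when 1 replicate was left out. Insig1 was higher under all 16, at 0.18 to 0.34, with an unadjusted p under 0.05 in 3 of them. The small differences of other genes changed sign: Fdft1 was 0.021 for the mean of probes and 0.0047 with quantile normalization, Msmo1 was -0.0028 under median scaling and -0.014 with the slide as a block, and Hmgcs1 was -0.0069 with normexp. When 1 replicate was left out, Fdft1 ran from -0.038 to 0.045, Msmo1 from -0.024 to 0.071, Sqle from -0.11 to 0.086 and Idi1 from -0.13 to 0.079. The slide as a block takes vehicle replicate 1 out of the comparison, so it gives the same values as leaving that array out. Median scaling and quantile normalization moved the median of all genes by under 0.1 log2, from 0.012 to -0.017 and 0.0032.

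With the replicate number as a block, 0 genes passed and the adjusted p of the 7 genes ran from 0.723 to 0.998; no call changed. Same-numbered arrays did not deviate together (r = -0.11, 0.0075 and 0.00095 over genes for numbers 1 to 3). Arrays of unlike number ran from -0.11 (vehicle replicate 2 with benzyl acetate replicate 3) to 0.12 (vehicle replicate 2 with benzyl acetate replicate 1). With so few arrays per group, this check cannot tell whether the numbers pair the animals. The median Pearson r over the 21 pairs was lowest at 0.084 for the mean of probes and highest at 0.41 with the group means taken out, and 0.20 to 0.55 when 1 replicate was left out; the median Spearman rho was 0.54. The median difference of the 7 genes was -0.0028 under median scaling, -0.0069 with normexp and -0.014 with the slide as a block, and -0.014 to 0.086 when 1 replicate was left out. Over the 16 alternatives the list medians also took both signs for the efflux list (-0.066 to 0.035), the isoprenoid list (-0.017 to 0.021) and the fatty acid list (-0.022 to 0.045). The number of arrays limits the precision.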
